A study of Mus musculus with 30 samples.

Results

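The response of neonatal microglia to high mobility group box 1 (HMGB1) in cultures grown without GM-CSF, called Protocol 1B, was described from 6 of the 30 bulk RNA sequencing libraries of the series, 3 Control and 3 HMGB1. The 6 libraries were chosen by their labels alone. In Protocol 1B, brains of C57/B6 pups of postnatal days 0 to 3 were dissociated, 5 mice to a cell suspension, and the mixed glial culture was kept for 10 days in medium with serum and no added GM-CSF, after which the loosely attached microglia were shaken off and plated overnight without serum. Control cells received nothing further and HMGB1 cells were exposed to HMGB1 for 4 h before RNA was taken. The concentration of HMGB1 is not given for this protocol in the sources used here. Protocols 1A and 1C, the nearest to it, had the same strain, age and handling but 0.5 ng/ml of GM-CSF, for 10 days in 1A and 21 days in 1C, with 6 libraries each. The cells of each library are a pool of several pups that matured beside astrocytes in a flask, which limits them as a model of microglia in the brain.

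HMGB1 is a DNA-binding protein of the nucleus that acts as a danger signal once it leaves a damaged or activated cell. Outside the cell it is sensed by Toll-like receptors 2 and 4 and by RAGE, and the Toll-like receptors signal through the adaptors MyD88 and TRIF to NF-kB, MAP kinases and interferon regulatory factors. NF-kB drives cytokine, chemokine and inhibitor genes, while interferon regulatory factor 3 drives interferon beta, whose receptor in turn switches on antiviral genes. GM-CSF is a growth factor of myeloid cells that astrocytes can also make, so a culture with no added GM-CSF need not be free of it.

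Total counts ran from 15403182 to 26863639 per library, and between 19432 and 20825 genes had at least 1 count. Libraries of the same group correlated at 0.9835 or above in log2 CPM and libraries of different groups at 0.8626 to 0.8848. Levels are given below as CPM, counts scaled to a common library size, after TMM scaling, and a gene is said to rise or fall where its adjusted p was below 0.05 in edgeR's quasi-likelihood test with Benjamini-Hochberg adjustment. Of 13598 genes tested, 4049 rose (29.8%) and 4355 fell (32.0%), with a median log2 fold change of -0.02 over all genes. The change was at least 2-fold for 1722 of the risen and 1893 of the fallen genes. Large changes were mostly rises: 317 genes rose and 41 fell by at least 4 on the log2 scale, and 50 rose and 0 fell by at least 8. The 876 genes that rose at least 4-fold took 2.31% ± 0.0722 of all counts in Control and 20.5% ± 1.53 with HMGB1 (SD, n = 3). The scaling of the libraries bears on these counts: with library totals in place of TMM the median of all genes shifts by -0.47 on the log2 scale and 2080 genes rose while 7850 fell. Changes below that size are therefore relative to the other genes of the same cells, and where library totals turn the balance of rises and falls in a list counted below, both counts are given. Each list count is to be read against all genes under the same scaling, with library totals 2080 rises and 7850 falls of 13598. Of the genes named below, 12 rose under TMM scaling and kept a positive log2 fold change with library totals, 0.01 to 0.33, without passing. They were Csf2ra, Csf2rb2, Dusp1, Fos, Ly96, Maf, Mki67, Nfe2l2, Pstpip1, Stat5a, Tgfb1 and Tlr4. Csf1r, Pf4 and Sall1 also rose under TMM scaling and did not pass with library totals, where they read -0.15, -0.04 and -0.06.

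**Figure D1:**
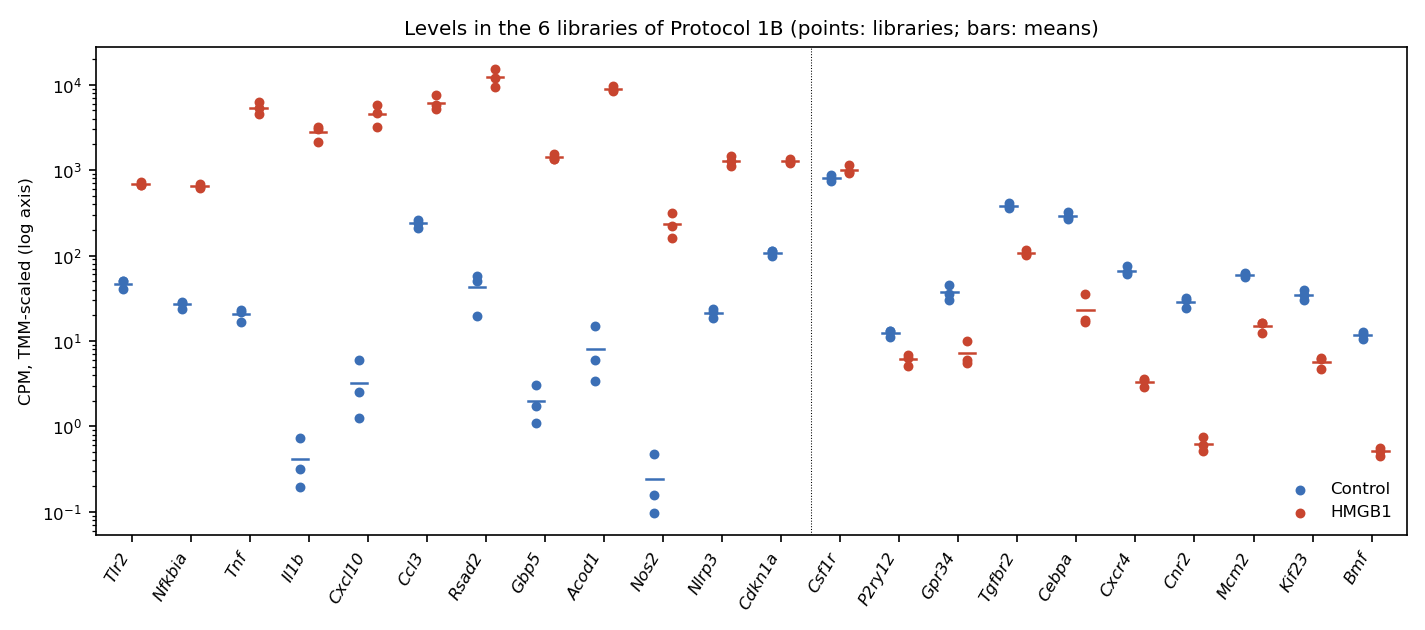
Levels of 22 genes in the 6 libraries of Protocol 1B, as TMM-scaled CPM on a log axis, with a point for each library and a bar for the mean of 3. Control (blue) and HMGB1 (red) libraries do not overlap for the 12 genes on the left, and on the right Csf1r stays close while Cnr2 and Bmf fall by over 4 on the log2 scale.

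The cells carried the markers of microglia and macrophages. The 12 markers summed to between 7221.6 and 8465 CPM in Control and between 8383 and 9308 with HMGB1. Markers of other cells were low. Astrocyte markers summed to 32.6 to 61.2 CPM in Control and 53.3 to 102 CPM with HMGB1 (exact permutation test, two-sided, p = 0.2, where 3 against 3 cannot go below 0.1), and 1 of 9 tested rose, or 5 of 9 with the replicate number as a block. Oligodendrocyte markers were at 141 to 151 and 142 to 173 CPM, neuron markers at 8.52 to 17.5 and 7.04 to 21.3, and fibroblast and mural markers at 32.2 to 97.2 and 45.7 to 86.7. Endothelial markers summed to 15.6 to 19.95 CPM in Control and 42.6 to 75.2 CPM with HMGB1, without overlap (exact permutation p = 0.1, the smallest possible). Flt1 and Kdr rose, while Cldn5, which defines brain endothelium, had 0 counts in every library. Neutrophil markers summed to 0.130 to 0.289 CPM in Control and 0.711 to 1.28 CPM with HMGB1, also without overlap (exact permutation p = 0.1), and of the 9 markers S100a9, Ltf, Elane, Mpo, Ly6g and Retnlg were at 0. Markers of T, B and NK cells (Cd3e, Cd3d, Nkg7 and Ncr1 at 0) and of red cells stayed under 0.4 CPM. Monocyte and dendritic cell markers summed to 2.41 to 3.55 CPM in Control and 4.60 to 6.91 CPM with HMGB1, without overlap (exact permutation p = 0.1), with Ly6c2 at 0. In bulk RNA, fewer cells of a type and less RNA per cell cannot be told apart. The part of these other cells in the results below was not tested.

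Among the receptors for HMGB1, Tlr2 rose steeply. It stood at 50.4, 49.7 and 40.1 CPM in Control and 727, 678 and 667 CPM with HMGB1 (log2 fold change 3.88, SE 0.0966, adjusted p = 3.22e-10). Every HMGB1 library lay above every Control library. Tlr4 itself, the receptor most often tied to HMGB1, rose little, from 75.1 ± 7.46 to 109 ± 10.9 CPM (log2 fold change 0.54, SE 0.0917, adjusted p = 4.59e-04), as did its partner Ly96 (0.55). Cd14, the co-receptor that hands ligands to both, was at 195, 278 and 262 CPM in Control and 1822, 2195 and 2043 CPM with HMGB1 (log2 fold change 3.04, SE 0.141, adjusted p = 1.65e-07). The groups did not overlap for Cd14. Ager, which encodes RAGE, was near the limit of detection at 0.954 ± 0.1197 to 0.621 ± 0.342 CPM (log2 fold change -0.68, SE 0.489, adjusted p = 0.256). Tlr1, which pairs with Tlr2, rose by 2.92 on the log2 scale. Cxcr4, a receptor for CXCL12 through which HMGB1 bound to that chemokine also acts, fell from 75.2, 64 and 61.1 CPM in Control to 3.55, 2.91 and 3.48 CPM with HMGB1 (log2 fold change -4.33, SE 0.122, adjusted p = 6.47e-10). Its Control libraries were all above 60 CPM and its HMGB1 libraries all below 4. Hmgb1 itself read 50.9 ± 0.917 to 34.8 ± 2.15 CPM (-0.55), a value that is uncertain because the genome holds near-identical copies of the gene.

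The adaptors and kinases behind these receptors moved unevenly. Myd88 rose from 35.5 ± 2.84 to 261 ± 30.5 CPM (log2 fold change 2.88, SE 0.098, adjusted p = 2.72e-09), and so did Irak2 (3.17) and Irak3 (3.11), the latter an inhibitory member of the family. Ikbke, the kinase that acts beside TBK1 on interferon regulatory factors, rose by 3.16. Ticam2, the adaptor that links TLR4 to TRIF, fell from 16.4 ± 0.839 to 9.91 ± 1.74 CPM (log2 fold change -0.74, SE 0.138, adjusted p = 7.92e-04). Traf3 was at -0.17 and did not pass. Of the 30 tested genes of receptors and adaptors 17 rose and 7 fell, against 29.8% and 32.0% of all genes, with a median of 0.48, and with library totals 12 rose and 11 fell.

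NF-kB genes rose together. Of 24 tested subunits, inhibitors and regulators 22 rose, with a median log2 fold change of 2.40, and the 2 others did not pass in edgeR's test, though both fell with library totals. Nfkbia, the inhibitor that NF-kB induces to shut itself off, was at 23.9, 28.2 and 28.3 CPM in Control and 610.0, 681 and 642 CPM with HMGB1 (log2 fold change 4.59, SE 0.0892, adjusted p = 7.99e-11). The 3 HMGB1 libraries lay close together, far above Control. Nfkbiz, an atypical inhibitor needed for a second wave of targets such as Il6, rose from 7.51, 7.697 and 6.23 CPM in Control to 451, 686 and 540.3 CPM with HMGB1 (log2 fold change 6.28, SE 0.195, adjusted p = 6.63e-08). Tnfaip3, the ubiquitin editor A20, rose from 62.9 ± 2.97 to 744 ± 70.1 CPM (3.56). Traf1, an adaptor of TNF receptors, had the steepest change of the list, from 0.538 ± 0.174 to 162 ± 29.4 CPM (log2 fold change 8.22, SE 0.232, adjusted p = 1.18e-08). All 5 DNA-binding subunits rose, with Nfkb2 at 3.41, Nfkb1 at 2.93, Rel at 2.62, Relb at 2.47 and Rela at 1.27. The 2 that did not pass were Otulin and Tnip2 (-0.08 and -0.06).

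The promoters of these genes were read for the letters NF-kB binds. Among 8587 tested protein-coding genes with a RefSeq promoter window in build GRCm38.p6, the NF-kB consensus stood in the 250 bases before the start, on either strand, in 4.33%. The share was 9.86% of the 497 genes that rose at least 4-fold, 3.00% of the 300 that fell at least 4-fold, 36.8% of 19 NF-kB genes, 33.3% of 15 chemokines and 26.3% of 19 cytokines. The letters TGANTCA of AP-1, read the same way, stood in 3.95% of all, 10.5% of the genes that rose at least 4-fold, 15 of the 300 that fell, 15.8% of the NF-kB genes, 13.3% of chemokines, 26.3% of cytokines and 24.2% of 33 interferon response genes. A match is a description of the letters and not a bound site. The stretches below are shown because they belong to genes with some of the steepest rises and hold the motif close to the start, marked in capitals and written on the strand of the gene.
Nfkbia (chr12:55492648-55492727, strand -, positions -80 to -1): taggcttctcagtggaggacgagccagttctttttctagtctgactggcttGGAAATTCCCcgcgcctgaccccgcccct
Cxcl1 (chr5:90891135-90891214, strand +, positions -110 to -31): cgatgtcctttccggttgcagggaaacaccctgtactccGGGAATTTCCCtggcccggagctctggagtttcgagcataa
Cxcl2 (chr5:90903769-90903848, strand +, positions -130 to -51): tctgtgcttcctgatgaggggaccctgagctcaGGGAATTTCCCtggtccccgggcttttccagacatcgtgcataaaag
Il6 (chr5:30013024-30013103, strand +, positions -90 to -11): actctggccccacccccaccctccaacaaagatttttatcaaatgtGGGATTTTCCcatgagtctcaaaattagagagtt
In Cxcl1 and Cxcl2 the capitals hold 2 overlapping matches that start 1 base apart.

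**Figure D2:**
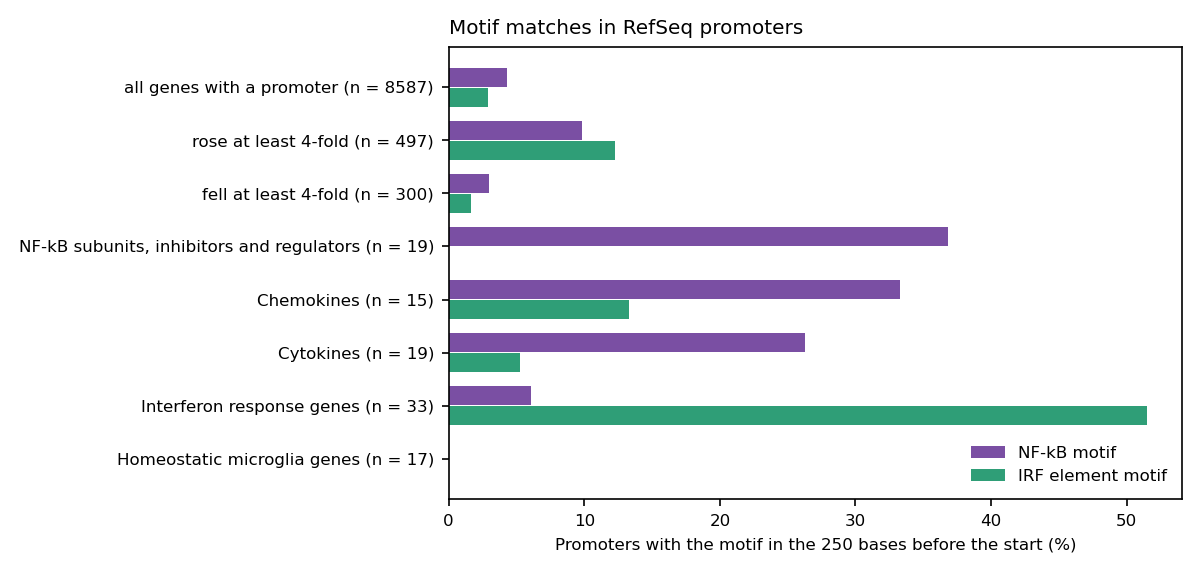
Percent of RefSeq promoters that hold the NF-kB motif (purple) or the interferon regulatory factor element (green) in the 250 bases before the start, for all genes with a promoter, genes that rose or fell at least 4-fold and 5 gene lists, with the number of promoters beside each name. NF-kB matches reach 36.8% in the NF-kB list and matches to the interferon element 51.5% in the interferon response list, against 4.33% and 2.92% of all promoters.

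The immediate early genes did not move as a unit. Of 25 tested 18 rose and 3 fell (median 1.04). Ier3 rose from 6.64 ± 1.08 to 140.2 ± 15.7 CPM (log2 fold change 4.41, SE 0.1295, adjusted p = 2.25e-09) and Junb from 69.9 ± 2.62 to 486 ± 69.2 CPM (2.80), whereas Fos was only at 15.6, 18.6 and 18.8 CPM in Control and 24.8, 35.1 and 30.3 CPM with HMGB1 (log2 fold change 0.77, SE 0.131, adjusted p = 4.60e-04), after 4 h of exposure. The Fos values of the groups did not overlap. Atf3, a stress-induced repressor of Toll-like receptor targets, was already high in Control and went from 335 ± 20.05 to 563 ± 53.3 CPM (0.75). Egr2 fell from 22.3 ± 4.05 to 8.67 ± 2.52 CPM (log2 fold change -1.36, SE 0.218, adjusted p = 5.94e-04), and Egr3 was at 1.18 without passing (adjusted p = 0.147, or 0.0041 with the replicate number as a block). Among phosphatases that switch MAP kinases off, Dusp2 rose from 0.867, 0.692 and 0.524 CPM in Control to 40.01, 60.2 and 53.7 CPM with HMGB1 (log2 fold change 6.19, SE 0.223, adjusted p = 1.36e-08), while Dusp1, the best known of them, rose by only 0.81 and failed the test on leaving out Control library 1 or 3 or HMGB1 library 2 or 3 (edgeR, adjusted p = 0.0704, 0.0505, 0.0692 and 0.0725). Dusp3 fell by 1.07. Of 10 tested 6 rose and 3 fell, or 3 and 3 with library totals. The RNA decay factors that clear inflammatory messages divided too. Zfp36 (tristetraprolin, 3.29), Zc3h12a (Regnase-1, 3.51) and Zc3h12c (3.83) rose, and their relatives Zfp36l1 (-2.44), Zfp36l2 (-0.93) and Zc3h12d (-2.36) fell. Of 13 tested 7 rose and 4 fell, or 5 and 6 with library totals.

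Cytokine genes were among the steepest rises. Of 29 tested 22 rose and 7 fell (median 3.36), and the 39 genes of the list together took 0.230% ± 0.00336 of all counts in Control and 1.05% ± 0.147 with HMGB1. Il1b, the precursor of interleukin 1β, was at 0.193, 0.735 and 0.314 CPM in Control and 2122, 3168 and 3010.4 CPM with HMGB1 (log2 fold change 12.64, SE 0.337, adjusted p = 6.72e-08). All 3 Control libraries were under 1 CPM. Tnf was at 16.9, 22.7 and 21.6 CPM in Control and 4530.3, 6204 and 5352 CPM with HMGB1 (log2 fold change 8.04, SE 0.182, adjusted p = 1.55e-09), so it was measurable before treatment and still rose in every library. Il1a rose from 2.88 ± 0.855 to 879 ± 192 CPM (8.24). Il6 had 2 counts in the 3 Control libraries together and 8443 in the HMGB1 libraries, a ratio of 5113 (exact counting interval 1415 to 42227). Il12b, the shared p40 chain of interleukins 12 and 23, had 1 and 3904 counts, a ratio of 4729 (848 to 186814).

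Growth factors of myeloid cells were among the induced cytokines. Csf2, which encodes GM-CSF, had 0 counts in Control and 103 with HMGB1, at least 13.7-fold higher when 3 counts per Control library are taken as the floor. Csf3 (G-CSF) rose from 0.2303 ± 0.138 to 136 ± 42.9 CPM (log2 fold change 9.13, SE 0.501, adjusted p = 2.32e-05) and Csf1 (M-CSF) from 13.2, 11.8 and 14.5 CPM in Control to 120.5, 143 and 155 CPM with HMGB1 (log2 fold change 3.41, SE 0.113, adjusted p = 3.21e-09). The Csf1 groups did not overlap. Ifnb1 had 0 counts in Control and 117 with HMGB1, at least 16.1-fold higher, and Il27 rose by 8.41. Brakes on inflammation rose with them, the interleukin 1 receptor antagonist Il1rn (39.5 ± 10.4 to 287 ± 124 CPM, 2.86) and, by less, Tgfb1 (0.54). Igf1, a trophic factor of microglia, was at 1386, 1297 and 1218 CPM in Control and 1108, 1224 and 1084 CPM with HMGB1 (log2 fold change -0.19, SE 0.0753, adjusted p = 0.0469). The groups overlapped, and Igf1 failed the test on leaving out Control library 1 or 2 or HMGB1 library 1 or 3 (edgeR, adjusted p = 0.164, 0.126, 0.109 and 0.155). Il10, Il12a and Il23a had too few counts to be tested, at 29 counts, 13 counts and 35 counts in Control and HMGB1 libraries together.

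Of 21 chemokines tested 19 rose and 1 fell (median 4.70), and the list took 0.134% ± 0.0154 of counts in Control and 1.97% ± 0.341 with HMGB1. The neutrophil attractants Cxcl1 and Cxcl2 rose from 0.109 ± 0.0495 to 187 ± 11.8 CPM (10.63) and 1.63 ± 0.875 to 2326 ± 315 CPM (log2 fold change 10.47, SE 0.331, adjusted p = 3.93e-07), and their neighbour Cxcl3 from 0.121 ± 0.131 to 50.7 ± 10.9 CPM (8.57). Cxcl10, which draws activated T cells, was at 1.25, 5.97 and 2.51 CPM in Control and 3162, 5861 and 4659.6 CPM with HMGB1 (log2 fold change 10.42, SE 0.652, adjusted p = 1.06e-04). Its Control libraries spread over several CPM and none came near the HMGB1 libraries. Cxcl9, of the same family, reached only 45.9 CPM, and Cxcl11 had 0 counts in Control and 148 with HMGB1. Ccl5 rose from 7.68 ± 4.38 to 1885 ± 109 CPM (7.92). Ccl3 and Ccl4 were already expressed in Control and rose from 237 ± 23.6 to 6162 ± 1212 CPM (4.70) and 178 ± 21.4 to 3201 ± 646 CPM (4.17). Per kilobase of gene length, Ccl3 moved from rank 78 to rank 2 of the protein-coding nuclear genes tested, behind Fth1 only, and Ccl4 from rank 94 to rank 6. Ccl9 (2.54) and Pf4 (0.43) rose least among those named, the latter by less than the shift between scalings.

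Every interferon response gene tested rose, 48 of 48 and 47 with library totals, with a median of 4.70, and the list grew from 0.150% ± 0.0224 of counts to 4.23% ± 0.591. Rsad2 (viperin) was at 57.5, 49.9 and 19.8 CPM in Control and 9445, 15202 and 11962 CPM with HMGB1 (log2 fold change 8.16, SE 0.583, adjusted p = 1.72e-04). The HMGB1 libraries differed among themselves by over 1.5-fold yet all stood above 9000 CPM. By mean CPM Rsad2 was the protein-coding nuclear gene with the most reads in the HMGB1 group after Fth1 and Ctsb. Its neighbour and partner Cmpk2 rose from 23.5 ± 10.7 to 6126 ± 1638 CPM (8.02). Ifit1 was at 15.3, 15.8 and 5.03 CPM in Control and 2289.7, 3024 and 2505 CPM with HMGB1 (log2 fold change 7.75, SE 0.505, adjusted p = 1.12e-04), with no overlap between the groups. Mx1 (7.54), Isg15 (6.31) and the RNA sensor Ifih1 (5.45) rose as well. The guanylate-binding proteins, best known as targets of interferon gamma, were among the steepest, with Gbp5 from 1.11, 3.07 and 1.73 CPM in Control to 1347, 1540.0 and 1338 CPM with HMGB1 (log2 fold change 9.45, SE 0.266, adjusted p = 7.75e-08). Gbp2 (7.07), Gbp3 (7.32) and Gbp7 (6.50) followed, though reads of near-identical family members can be split between them. The smallest of the named rises was that of Bst2 (tetherin), already at 193 CPM in Control (1.53).

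The letters of an interferon regulatory factor element, a pair of GAAA words set 2 bases apart on either strand, stood in the 250 bases before the start in 51.5% of 33 interferon response genes with a window, in 12.3% of genes that rose at least 4-fold, in 1.67% of genes that fell as much, and in 2.92% of all 8587. Capitals mark the element in 4 promoters of genes from different branches of the list. Cxcl10 is added because its window holds both kinds of letters, the element first and the NF-kB matches after it.
Ifit1 (chr19:34640769-34640828, strand +, positions -120 to -61): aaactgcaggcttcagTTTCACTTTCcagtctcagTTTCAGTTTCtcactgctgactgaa
Isg15 (chr4:156200859-156200918, strand -, positions -100 to -41): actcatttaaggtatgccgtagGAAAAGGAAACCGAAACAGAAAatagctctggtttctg
Rsad2 (chr12:26456543-26456602, strand -, positions -150 to -91): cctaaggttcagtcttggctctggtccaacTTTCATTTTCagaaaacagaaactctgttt
Gbp2 (chr3:142620573-142620632, strand +, positions -90 to -31): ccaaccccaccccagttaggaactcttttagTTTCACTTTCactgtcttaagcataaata
Cxcl10 (chr5:92348970-92349119, strand -, positions -230 to -81): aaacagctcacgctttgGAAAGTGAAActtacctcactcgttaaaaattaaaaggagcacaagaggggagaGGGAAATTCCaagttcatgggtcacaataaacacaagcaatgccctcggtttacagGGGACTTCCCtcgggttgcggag
Overlapping matches run together in Isg15, where they start at -78, -72 and -66 counted from the start.

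The transcription factors and inhibitors of interferon signalling were not uniform. Irf7, the factor that amplifies interferon genes, rose from 19.4, 28.8 and 12.6 CPM in Control to 694, 908 and 785 CPM with HMGB1 (log2 fold change 5.29, SE 0.341, adjusted p = 7.02e-05), and Irf1 from 27.4 ± 2.44 to 666 ± 17.98 CPM (4.60). The groups did not overlap for Irf7. Irf3, which acts first and needs no new message, was at -0.04 (adjusted p = 0.679), and Irf8, which microglia need to form, at -0.33 (adjusted p = 0.123). With library totals and upper-quartile scaling both passed as falls (Irf3 -0.51 and -0.27, Irf8 -0.81 and -0.56). Irf8 also passed without the filter (-0.36) and on leaving out HMGB1 library 2 (-0.53). Stat2 (3.82) and Stat3 (1.37) rose, and Stat5a by 0.64. The feedback inhibitors Socs3 and Socs1 rose from 2.34 ± 0.5802 to 465 ± 53.7 CPM (log2 fold change 7.65, SE 0.161, adjusted p = 6.54e-10) and 1.31 ± 0.497 to 110.3 ± 20.3 CPM (6.41), while Socs6 fell by 2.11. Of 25 tested 16 rose and 2 fell (median 1.40).

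All 16 MHC class I presentation genes tested rose (median 2.14). The peptide transporter Tap1 was at 40.3, 36.9 and 34.1 CPM in Control and 638, 767 and 676 CPM with HMGB1 (log2 fold change 4.22, SE 0.096, adjusted p = 1.75e-10), clear of Control in every library. The immunoproteasome subunit Psmb9 rose by 2.54 and B2m by 0.99. Class II genes were low. H2-DMa (0.39) and H2-DMb1 (-0.20) did not pass, H2-Aa and Ciita had too few counts to be tested, and Cd74 reached 15.9 CPM (1.86). Costimulatory genes rose with Cd40 in front, at 2.02, 1.6 and 1.41 CPM in Control and 353, 421 and 396 CPM with HMGB1 (log2 fold change 7.85, SE 0.126, adjusted p = 3.97e-11). No Control library exceeded 3 CPM for Cd40. Cd274, which encodes the checkpoint ligand PD-L1, rose from 29.02 ± 3.19 to 1027 ± 120.2 CPM (5.14), and Cd86 (1.53) and Cd83 (1.14) by less.

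Receptors that guide migration moved in both directions. The formyl peptide receptors Fpr1 and Fpr2 rose from 0.406 ± 0.398 to 106 ± 28.9 CPM (log2 fold change 7.93, SE 0.443, adjusted p = 1.81e-05) and 0.216 ± 0.171 to 58.1 ± 8.298 CPM (log2 fold change 7.99, SE 0.263, adjusted p = 8.60e-09), and the decoy receptor Ccrl2 from 15.4 ± 2.29 to 860.2 ± 70.7 CPM (5.80). C5ar1 (1.36) and C3ar1 (0.99) for complement peptides rose as well. Gpr183, a receptor for oxysterols made by CH25H, fell from 26.1, 25.6 and 23.7 CPM in Control to 0.679, 0.582 and 0.558 CPM with HMGB1 (log2 fold change -5.38, SE 0.156, adjusted p = 7.28e-10). The HMGB1 libraries were all under 1 CPM. Cx3cr1, the receptor for the neuronal chemokine CX3CL1, went from 31.96 ± 2.45 to 20.8 ± 2.14 CPM (log2 fold change -0.62, SE 0.0986, adjusted p = 2.71e-04). Of 15 tested 7 rose and 6 fell (median 0.54), or 6 and 7 with library totals (median 0.07), against 29.8% and 32.0% of all genes under TMM scaling.

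Of 23 receptors for purines, cannabinoids and lipids tested 9 fell and 5 rose (median -0.24), not far from the 32.0% and 29.8% of all genes. Cnr2, the cannabinoid receptor CB2, had the steepest fall of any gene that met the naming rule, at 29.8, 24.6 and 31.6 CPM in Control and 0.755, 0.517 and 0.601 CPM with HMGB1 (log2 fold change -5.52, SE 0.184, adjusted p = 1.74e-09). No HMGB1 library reached 1 CPM. The sphingosine 1-phosphate receptor S1pr1 fell from 76.9 ± 7.19 to 9.97 ± 1.53 CPM (-2.93), the lysophosphatidic acid receptor Lpar5 from 24.97 ± 2.01 to 1.47 ± 0.2999 CPM (-4.11) and Gpr34, a receptor for lysophosphatidylserine typical of microglia, from 45.7, 35.6 and 30.3 CPM in Control to 6.04, 9.89 and 5.498 CPM with HMGB1 (log2 fold change -2.40, SE 0.247, adjusted p = 8.99e-05). The groups were apart for Gpr34. P2ry6, which senses UDP and triggers phagocytosis, fell by 1.91. Against this, the adenosine receptor Adora2a had 3 counts in Control and 2586 with HMGB1, a ratio of 1044 (exact counting interval 357 to 5066), and Gpr84, a receptor for medium-chain fatty acids, rose from 2.73 ± 0.813 to 309.9 ± 29.6 CPM (log2 fold change 6.81, SE 0.167, adjusted p = 2.60e-09). P2ry13 was at 19.3, 18.03 and 17.5 CPM in Control and 18.5, 23.3 and 16.2 CPM with HMGB1 (log2 fold change 0.07, SE 0.131, adjusted p = 0.652) and did not pass. Its groups overlapped.

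Among cytokine and growth factor receptors, Tnfrsf1b (TNFR2) rose from 374, 331 and 308 CPM in Control to 3604, 3550.2 and 3454 CPM with HMGB1 (log2 fold change 3.39, SE 0.0875, adjusted p = 3.60e-10), and no libraries of the 2 groups overlapped. Il15ra (4.46) and Il10ra (2.00) rose, and Il6ra fell from 61.2 ± 3.86 to 12.3 ± 0.532 CPM (-2.32). The receptor of GM-CSF rose in all its chains, with Csf2ra at 176, 202 and 201 CPM in Control and 267, 273 and 270.3 CPM with HMGB1 (log2 fold change 0.48, SE 0.0676, adjusted p = 1.01e-04), Csf2rb at 1.33 and Csf2rb2 at 0.54, and the M-CSF receptor Csf1r by 0.32. With library totals Csf1r reads -0.15 and Csf2ra 0.01, and Csf1r failed the test on leaving out Control library 2 or 3 or HMGB1 library 1 (edgeR, adjusted p = 0.0593, 0.063 and 0.0549). Tgfbr2 fell from 418, 378 and 358 CPM in Control to 115, 105 and 101 CPM with HMGB1 (log2 fold change -1.85, SE 0.0786, adjusted p = 9.34e-09) and Tgfbr1 by 0.91. Of 29 receptors tested 20 rose and 6 fell (median 0.48), or 12 and 10 with library totals.

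Behind the TGF-β receptors, whose signal keeps microglia in their resting identity, Smad3 fell from 17.6 ± 1.63 to 4.95 ± 0.521 CPM (log2 fold change -1.82, SE 0.137, adjusted p = 7.93e-07), the inhibitor Smad7 fell by 1.34 and the corepressor Ski by 1.94, while its relative Skil rose by 2.27. Of 19 tested 8 rose and 5 fell (median 0.18), or 3 and 10 with library totals.

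Lineage transcription factors of the same family moved in opposite directions. Of 27 tested 15 rose and 9 fell (median 0.23), or 9 and 15 with library totals. Cebpa, a factor for myeloid maturation, was at 320.4, 282 and 267 CPM in Control and 35.3, 16.5 and 17.5 CPM with HMGB1 (log2 fold change -3.68, SE 0.327, adjusted p = 3.08e-04). Its lowest Control library was over 7 times its highest HMGB1 library. Its relatives Cebpd (14.2 ± 2.12 to 237 ± 16.8 CPM, 4.06) and Cebpb (95.3 ± 3.94 to 348 ± 11.5 CPM, 1.87) rose. Maf rose by 0.51. Mef2c, a microglial factor that restrains inflammatory genes, fell by 1.09. Bhlhe40 fell by 2.87. Spi1, which encodes PU.1, the master factor of the lineage, rose from 292 ± 5.01 to 834 ± 30.8 CPM (log2 fold change 1.52, SE 0.0606, adjusted p = 6.02e-09). Sall1, the factor most particular to microglia in the brain, was at 11.1, 10.5 and 8.59 CPM in Control and 13.97, 14.2 and 12.2 CPM with HMGB1 (log2 fold change 0.41, SE 0.136, adjusted p = 0.022), and failed the test on leaving out Control library 3 or HMGB1 library 1 or 2 (edgeR, adjusted p = 0.0841, 0.0504 and 0.0722).

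Genes that mark resting microglia mostly fell or did not pass. Of 30 tested 3 rose, 16 fell and 11 did not pass (median -0.37), where 32.0% of all genes fell. With library totals 1 rose and 24 fell, where 7850 of all 13598 genes fell. The level of several was low before treatment. Tmem119 was at 2.02, 2.16 and 1.78 CPM in Control and 1.28, 0.582 and 1.203 CPM with HMGB1 (log2 fold change -0.95, SE 0.375, adjusted p = 0.0467), and it failed the test on leaving out Control library 1, 2 or 3 or HMGB1 library 2 or 3 (edgeR, adjusted p = 0.105, 0.128, 0.0648, 0.13 and 0.0547). P2ry12, the ADP receptor, was at 13.1, 13.2 and 11.1 CPM in Control and 6.34, 6.91 and 5.03 CPM with HMGB1 (log2 fold change -1.04, SE 0.156, adjusted p = 1.67e-04). The groups did not overlap for P2ry12. Siglech had 11 counts in the 6 libraries together and was not tested. Slco2b1, an anion transporter particular to microglia, fell furthest, from 36.97 ± 7.695 to 2.17 ± 0.606 CPM (log2 fold change -4.08, SE 0.212, adjusted p = 1.81e-07). Gas6, a ligand of the TAM receptors, fell from 1412 ± 134 to 624 ± 33.5 CPM (-1.18), while the receptors Mertk (1.18) and Axl (1.81) rose. Trem2 (884 ± 77.7 to 564 ± 23.9 CPM, -0.65) fell as well, and Fcrls (-0.02) did not pass.

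Genes of the disease-associated state did not follow a common direction. Of 29 tested 11 rose, 6 fell and 12 did not pass (median 0.06), against 29.8% and 32.0% of all genes that rose and fell. With library totals 8 rose and 18 fell, where 2080 and 7850 of all 13598 genes did. Its best known members were high already in Control and did not pass with HMGB1 under TMM scaling, among them Apoe at 9657 ± 1556 to 9490.1 ± 1562 CPM (-0.03), Spp1 at 8212 ± 485 to 8579.9 ± 166 CPM (0.06), Clec7a at 0.05 and Gpnmb at -0.17 (adjusted p = 0.136, or 0.0127 with the replicate number as a block). With library totals Apoe (-0.49), Spp1 (-0.41), Clec7a (-0.43) and Gpnmb (-0.64) passed as falls. Spp1 and Gpnmb also did with upper-quartile scaling (-0.17 and -0.4). Lyz2, a lysozyme gene, was at 0.25 (adjusted p = 0.23, or 0.0011 with the block), and Itgax at 0.24 (0.165 and 0.0133). Ch25h, the cholesterol 25-hydroxylase, rose from 5.23 ± 1.67 to 349 ± 95.7 CPM (log2 fold change 6.05, SE 0.342, adjusted p = 3.10e-05), and Ccl3, Ccl4, Csf1 and Axl belong to this list too.

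Among genes of phagocytosis and complement 16 of 30 rose and 5 fell (median 0.28), or 12 and 14 with library totals. The scavenger receptor Marco was at 8.19, 13.4 and 8.69 CPM in Control and 569, 251 and 296 CPM with HMGB1 (log2 fold change 5.19, SE 0.475, adjusted p = 4.83e-04), and the Control and HMGB1 libraries were far apart. C3, the central complement component, rose from 17.2 ± 9.94 to 421 ± 64.05 CPM (log2 fold change 4.59, SE 0.451, adjusted p = 6.36e-04). Olr1, a receptor for oxidized lipoproteins, had 1 count in Control and 529 with HMGB1, a ratio of 641 (exact counting interval 115 to 25355). The high-affinity IgG receptor Fcgr1 rose by 2.51, while Cd68 (0.12), Mrc1 (-0.10) and Stab1 (-0.05) did not pass. C1qa was at 0.21 (adjusted p = 0.0604, or 0.00387 with the block) and C1qc at 0.16 (0.211 and 0.0203).

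Enzymes that make inflammatory metabolites rose steeply. Acod1, which makes itaconate from a citric acid cycle intermediate, was at 3.42, 14.9 and 6.02 CPM in Control and 8524, 9631 and 8638 CPM with HMGB1 (log2 fold change 10.08, SE 0.655, adjusted p = 1.24e-04). The Control libraries differed from each other by over 4-fold and the HMGB1 libraries by little. Per kilobase of gene length it moved from rank 7351 to rank 10. Nos2, the inducible nitric oxide synthase, was at 0.0963, 0.476 and 0.157 CPM in Control and 161, 313 and 225 CPM with HMGB1 (log2 fold change 9.81, SE 0.5198, adjusted p = 2.75e-05), with no overlap. Gch1, which makes its cofactor, rose by 3.48. Ptgs2 (cyclooxygenase 2) rose from 2.86 ± 1.49 to 2022 ± 507 CPM (log2 fold change 9.48, SE 0.436, adjusted p = 1.40e-05) and Ptges, the next enzyme toward prostaglandin E2, from 2.03 ± 1.23 to 338 ± 54.7 CPM (7.36), while Hpgds, which leads to prostaglandin D2, fell by 0.77. Arg1 was low in both groups at 2.02 ± 0.959 to 1.06 ± 0.856 CPM (adjusted p = 0.208, or 0.0468 with the block). Cybb, the NADPH oxidase subunit, rose from 769.9 ± 46.5 to 3693 ± 136 CPM (2.26). Of 25 enzymes 14 rose and 5 fell (median 1.45).

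Among glucose transporters, Slc2a6 rose from 22.5, 27.8 and 28.3 CPM in Control to 572, 556 and 520.1 CPM with HMGB1 (log2 fold change 4.39, SE 0.0974, adjusted p = 1.55e-10) and Slc2a1 (GLUT1) from 77.3 ± 1.55 to 221 ± 1.77 CPM (1.51), and the Slc2a6 groups did not overlap. Slc2a3 fell by 1.42. Of 24 genes of glycolysis and glucose uptake 14 rose and 5 fell (median 0.33), or 10 and 12 with library totals. Gapdh read -1.49 without passing and is uncertain, since the genome holds many near-identical copies. Of 44 nuclear genes of oxidative phosphorylation 21 rose and 1 fell under TMM scaling, by small amounts (median 0.18), but with library totals 1 rose and 33 fell, so no direction is given for them. Cycs, cytochrome c, stood out at 1.34. In the citric acid cycle Idh1 fell from 232 ± 31.1 to 107 ± 7.88 CPM (log2 fold change -1.13, SE 0.098, adjusted p = 4.27e-06) and Idh2 by 0.61, while Sdha (-0.14) did not pass. Of 22 enzymes 9 rose and 7 fell (2 and 17 with library totals), against 29.8% and 32.0% of all genes under TMM scaling.

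Lipid and lysosome lists had rises and falls in similar numbers under TMM scaling, as did all genes (29.8% rose and 32.0% fell). Of 24 cholesterol synthesis genes 6 rose and 7 fell (2 and 18 with library totals), of 28 genes of LXR targets and lipid handling 6 and 7 (2 and 20, or 11 falls with the replicate number as a block), and of 43 lysosomal genes 10 and 14 (1 and 35). Single members moved. Dhcr7, the last enzyme of cholesterol synthesis, fell from 63.9 ± 1.04 to 20.1 ± 2.37 CPM (log2 fold change -1.67, SE 0.0875, adjusted p = 4.80e-08). Pparg, a lipid-sensing receptor that restrains inflammatory genes, fell from 40.2, 37.1 and 37.3 CPM in Control to 6.42, 6.91 and 5.498 CPM with HMGB1 (log2 fold change -2.62, SE 0.107, adjusted p = 7.10e-09). No HMGB1 library of Pparg overlapped Control. Scd2 fell by 1.13. Abca1 was at 0.44 (adjusted p = 0.055, or 0.00572 with the block). Ctsc, a protease that activates others in granules, rose from 260.3 ± 21.2 to 1277 ± 133 CPM (2.29), the largest named change of the lysosomal list.

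The antioxidant genes mostly rose, 16 of 24 with 2 falls (median 0.85). Sod2, the mitochondrial superoxide dismutase, was at 61.9, 76.5 and 64.98 CPM in Control and 1149.9, 1111 and 1024 CPM with HMGB1 (log2 fold change 4.01, SE 0.0961, adjusted p = 2.56e-10), well apart from Control. Slc7a11, the cystine importer, rose from 15.2 ± 2.03 to 469 ± 73.02 CPM (log2 fold change 4.95, SE 0.145, adjusted p = 8.60e-09), Hmox1 (heme oxygenase 1) by 1.45, Srxn1 by 1.98 and Gclm by 1.60. Nfe2l2, which encodes NRF2, rose by 0.67 and its inhibitor Keap1 by 1.24. Of the stress response genes 10 of 25 rose and 9 fell (5 and 17 with library totals). Ppp1r15a (GADD34) rose by 3.14, Trib3 fell by 2.29 and Atf4 was at -0.10. In iron handling, Lcn2, which sequesters siderophores, rose from 0.126 ± 0.0201 to 8.43 ± 1.72 CPM (5.98), the exporter Slc40a1 (ferroportin) fell by 0.83, and Tfrc was at 0.04. Of 40 ribosome biogenesis genes 18 rose and 7 fell (4 and 24 with library totals), with Wdr43 (1.83) and Rrs1 (1.24) in front and Polr1b and Gnl3 falling by 0.68 and 0.70.

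Of 27 regulators of cell death tested 14 rose and 7 fell (median 0.26), or 12 and 13 with library totals. Cflar (FLIP), which blocks caspase 8, rose from 116, 124 and 125 CPM in Control to 905, 1132 and 957 CPM with HMGB1 (log2 fold change 3.03, SE 0.0918, adjusted p = 8.92e-10), with the libraries apart. Bcl2a1b, Bcl2a1a and Bcl2a1d rose by 2.22, 6.72 and 4.21, although reads of these near-identical copies may be split between them, and Mcl1 rose by 1.07. Bmf, a BH3-only promoter of cell death, fell from 12.04, 12.6 and 10.7 CPM in Control to 0.453, 0.517 and 0.558 CPM with HMGB1 (log2 fold change -4.49, SE 0.202, adjusted p = 1.48e-08). Its HMGB1 libraries were all below 1 CPM. Bcl2l11 (BIM) fell by 1.37. Fas rose by 4.30. In the inflammasome, the sensor Nlrp3 was at 18.4, 21.7 and 23.6 CPM in Control and 1118, 1450.0 and 1286 CPM with HMGB1 (log2 fold change 5.92, SE 0.135, adjusted p = 6.85e-10), with no overlap, while Nlrp1b fell by 2.86. Casp4 (caspase 11) rose from 10.2 ± 0.957 to 163 ± 16.3 CPM, Casp1 by 2.33, the pore former Gsdmd by 1.54 and the necroptosis effector Mlkl by 3.75, whereas its kinase Ripk3 was at -0.17 and did not pass. Of 18 genes of the inflammasome, pyroptosis and necroptosis tested 8 rose and 4 fell, or 8 and 10 with library totals. Under TMM scaling 29.8% of all genes rose and 32.0% fell.

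Proteases and adhesion molecules mostly rose, 20 of 30 with 7 falls (median 1.15). The collagenase Mmp13 was at 14.5, 10.9 and 12.99 CPM in Control and 684, 1671 and 1209.5 CPM with HMGB1 (log2 fold change 6.54, SE 0.457, adjusted p = 1.48e-04), and its lowest HMGB1 library stood far above its highest Control library. Mmp14, which activates other matrix proteases, rose from 30.6 ± 3.88 to 652 ± 88.3 CPM (4.42), Mmp9 from 3.65 ± 0.7801 to 99.9 ± 5.26 CPM (4.77) and Adamts4 from 0.862 ± 0.625 to 51.8 ± 7.37 CPM (5.96), while Adamts1 fell by 2.05. The adhesion ligand Icam1 rose from 28.1 ± 2.303 to 982 ± 18.5 CPM (log2 fold change 5.13, SE 0.0819, adjusted p = 3.97e-11) and its leukocyte receptor chain Itgal by 3.74.

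**Figure D3:**
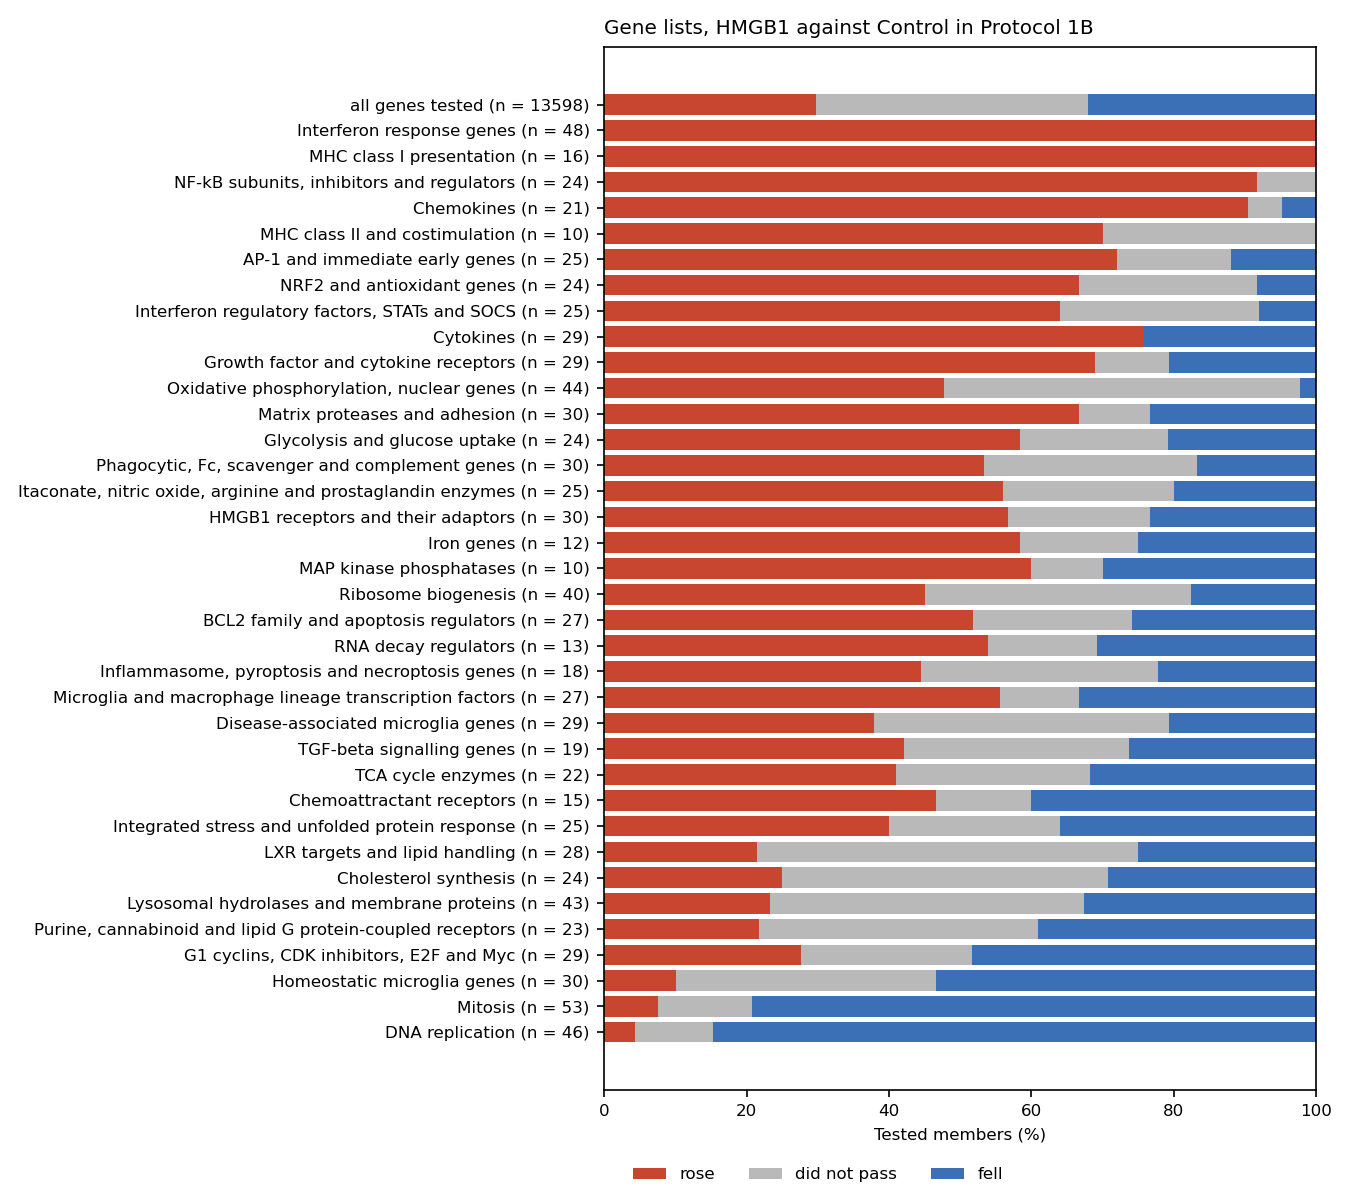
Share of the tested members of each of 36 gene lists that rose (red), fell (blue) or did not pass (grey) with HMGB1 in Protocol 1B, beside all 13598 genes tested in the top bar, where 29.8% rose and 32.0% fell. Interferon response and MHC class I genes rose without exception under TMM scaling, and DNA replication and mitosis genes at the bottom mostly fell.

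Genes of the cell cycle mostly fell. Of 46 DNA replication genes 39 fell and 2 rose (median -0.94), and of 53 mitosis genes 42 fell and 4 rose (median -0.82). With library totals 44 and 49 fell. That scaling shifts all genes down (7850 of 13598 fell), so it could not have turned these falls. The replication licensing factor Cdc6 fell from 7.56, 10.8 and 9.69 CPM in Control to 1.43, 0.775 and 1.37 CPM with HMGB1 (log2 fold change -2.95, SE 0.251, adjusted p = 2.16e-06), the helicase subunit Mcm2 from 59.7 ± 3.62 to 14.9 ± 2.15 CPM (-1.99) and Rrm2, which supplies nucleotides, from 41.9 ± 5.34 to 13.2 ± 2.65 CPM (-1.64). Tyms, which makes thymidylate, was at -0.33 (adjusted p = 0.0867, or 0.0305 with the block). Of the mitotic genes, Kif23 fell from 30.3, 34.7 and 39.2 CPM in Control to 4.68, 6.203 and 6.27 CPM with HMGB1 (log2 fold change -2.58, SE 0.1395, adjusted p = 6.06e-08), Bub1b by 1.80 and the kinase Cdk1 by 0.91. The groups did not overlap for Cdc6 or Kif23. Among the 4 mitosis genes that rose, Mki67, the proliferation marker, was at 99.3, 113 and 128 CPM in Control and 172, 151 and 168 CPM with HMGB1 (log2 fold change 0.53, SE 0.0936, adjusted p = 6.47e-04), and Pttg1, which encodes securin, rose from 11.2 ± 1.36 to 54.2 ± 8.99 CPM (log2 fold change 2.28, SE 0.134, adjusted p = 2.81e-07). With library totals Mki67 reads 0.05.

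Among regulators of the G1 phase, Cdkn1a, the inhibitor p21, was at 98.6, 112 and 114 CPM in Control and 1235, 1358 and 1210.1 CPM with HMGB1 (log2 fold change 3.55, SE 0.0844, adjusted p = 2.42e-10). Every HMGB1 library exceeded 1000 CPM. Cdkn2b (p15) rose by 2.21 and Cdkn1b (p27) fell by 1.36. Ccnd1, a D-type cyclin, fell from 148, 165 and 191 CPM in Control to 28.9, 51.6 and 42.8 CPM with HMGB1 (log2 fold change -2.02, SE 0.213, adjusted p = 2.41e-04), while Ccnd2 rose from 3.89 ± 1.88 to 16.01 ± 5.38 CPM (2.07). The activators E2f1 and E2f2 fell by 1.32 and 3.50. Of 29 tested 8 rose and 14 fell, against 29.8% and 32.0% of all genes.

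The promoters of the mitotic genes share letters that the rule did not use. The CCAAT box, the letters CCAAT on either strand, stood in 78.6% of 42 mitosis promoters, 60.5% of 38 DNA replication promoters and 37.1% of all 8587, and the cell cycle genes homology region (CHR), the letters TTTGAA on either strand, in 35.7%, 10.5% and 10.2%. The E2F letters TTTGGCGC or TTTCCCGC stood in 15.8% of the replication promoters, 7.14% of the mitosis promoters and 2.77% of all. CCAAT and TTTGAA are short, and the shares in all promoters show how often such words occur. The CHR also stood in 30.3% of the 33 promoters of interferon response genes, all of which rose, in 3 of 15 chemokine promoters, and in 13.3% of the genes that rose at least 4-fold against 11.3% of those that fell so far. In the whole window, which runs 50 bases past the start, the CHR stood in 73.8% of mitosis promoters, 30.3% of interferon response promoters and 11.5% of all. Promoters of genes that fell, Cdk1 (-0.91), Cdc20 (-1.13) and Ccnb1 (-0.66), are shown with CCAAT or its complement ATTGG and the CHR in capitals. Ccnb1 holds 2 CCAAT boxes in this stretch and no CHR.
Cdk1 (chr10:69352913-69353012, strand -, positions -100 to -1): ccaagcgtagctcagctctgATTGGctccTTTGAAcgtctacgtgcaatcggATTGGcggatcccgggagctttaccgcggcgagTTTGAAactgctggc
Cdc20 (chr4:118437344-118437423, strand -, positions -80 to -1): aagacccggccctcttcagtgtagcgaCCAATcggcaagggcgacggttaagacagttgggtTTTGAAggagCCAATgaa
Ccnb1 (chr13:100786527-100786606, strand -, positions -120 to -41): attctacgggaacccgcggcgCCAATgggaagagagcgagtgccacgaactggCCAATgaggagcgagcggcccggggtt

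**Figure D4:**
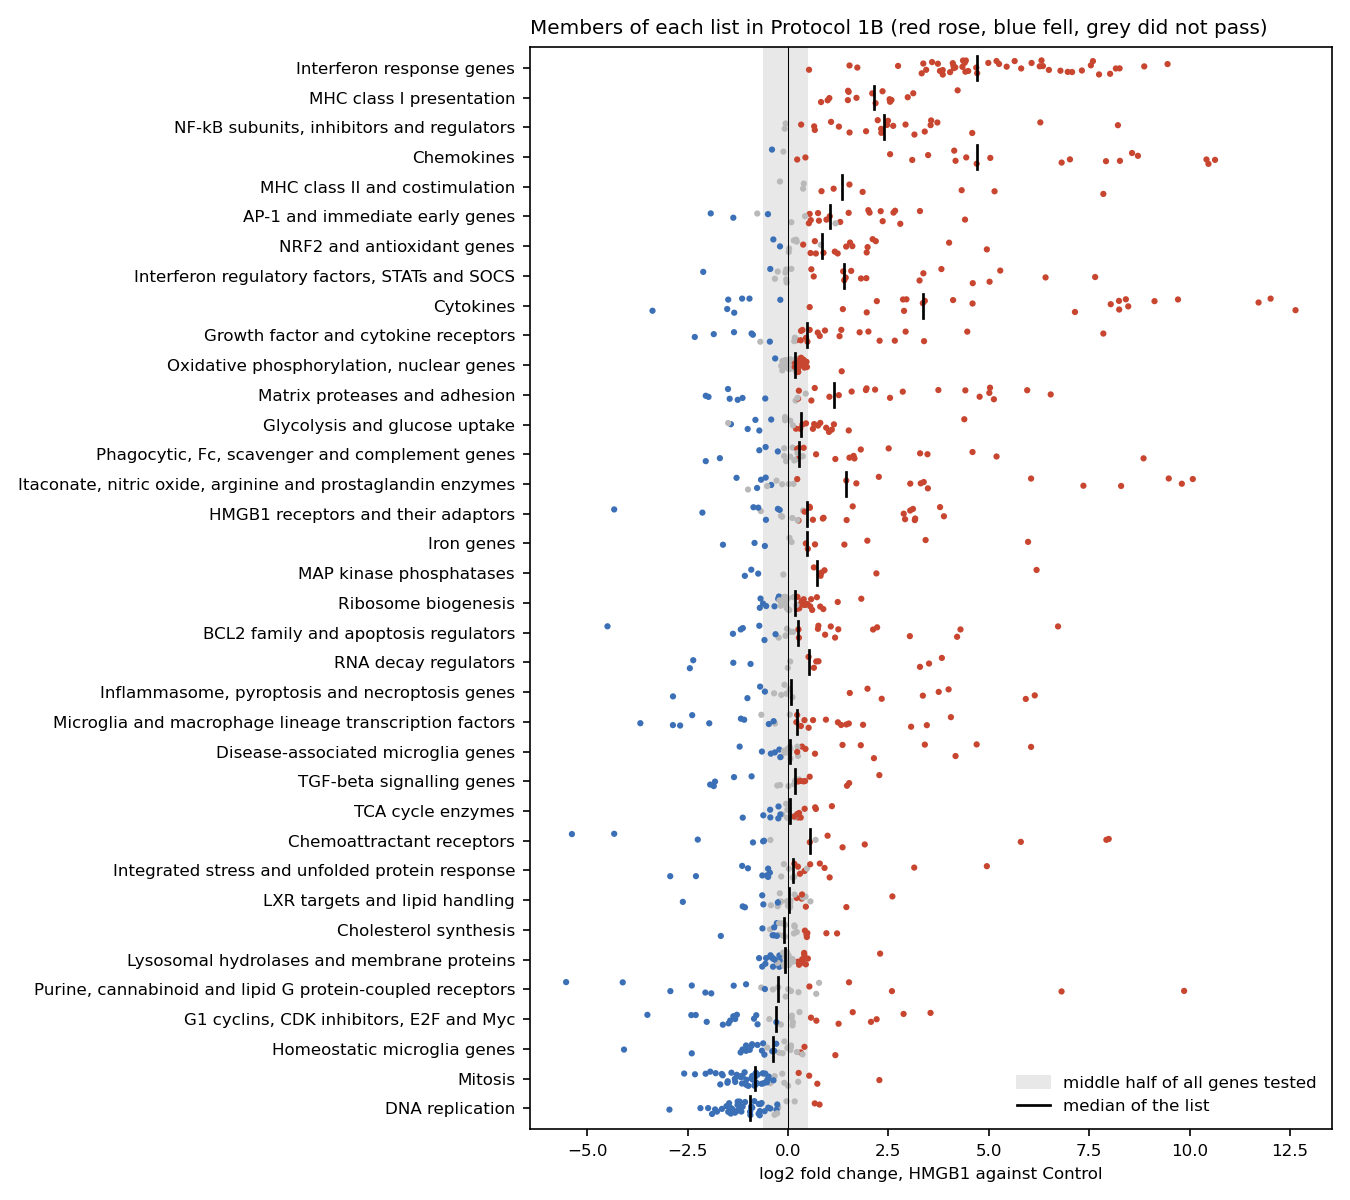
Log2 fold change of every tested member of the 36 lists (red rose, blue fell, grey did not pass), with a black line at the median of each list and a grey band over the middle 50% of all genes tested. The medians run from 4.70 for chemokines and interferon response genes down to -0.94 for DNA replication genes, and most lists hold members on both sides of 0.

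Outside the lists, the naming rule added genes of other kinds. Serpina3f, a protease inhibitor, had 1 count in Control and 2132 with HMGB1, a ratio of 2582 (exact counting interval 463 to 102042). Cd69, an early activation marker that keeps cells in tissue, was at 0.289, 1.34 and 0.628 CPM in Control and 799, 1754 and 1257 CPM with HMGB1 (log2 fold change 10.67, SE 0.598, adjusted p = 6.11e-05), and Edn1, the vasoconstrictor endothelin 1, at 0.0482, 0.0432 and 0.209 CPM in Control and 63.9, 154 and 124 CPM with HMGB1 (log2 fold change 10.13, SE 0.7499, adjusted p = 1.78e-04). No Control library of either reached 2 CPM. Lad1, a protein of epithelial basement membranes, had 0 counts in Control and 890 with HMGB1, at least 118-fold higher. Among the falls, Rtn4rl1, a Nogo receptor relative, went from 25.6 ± 1.58 to 0.833 ± 0.415 CPM (log2 fold change -5.05, SE 0.246, adjusted p = 4.41e-08), Nat8l, which makes N-acetylaspartate, from 52.7 ± 7.05 to 2.16 ± 0.261 CPM (-4.62) and Rasgrp3, an activator of Ras, from 341 ± 17 to 16.2 ± 2.89 CPM (-4.39). Rasgrp1, its relative, had 0 counts in Control and 181 with HMGB1, at least 24.5-fold higher. Asb10 (-4.53), Zfp395 (-4.45), Arhgap19 (-4.44) and Fam214a (-4.43) complete the 10 falls that the naming rule gave, with Cnr2, Gpr183 and Bmf.

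The response without GM-CSF was then set against those of Protocols 1A and 1C, in a fit of all 18 libraries. Over the genes tested in both, the log2 fold changes of 1B correlated with those of 1A at 0.903 (Pearson's r, 12819 genes) and with those of 1C at 0.908 (13285 genes), from separate fits and across genes, which are not independent replicates. Of 15552 genes, the response of 1B was higher than that of 1A for 613 (3.94%) and lower for 564 (3.63%), and against 1C for 886 (5.70%) and 656 (4.22%). In 217 genes (1.40%) it was higher than both and in 130 (0.836%) lower than both. The 2 differences share the 1B libraries. Of the 217, the mean Control level of 1B was below that of 1A and 1C for 188 and the mean HMGB1 level above them for 87. The Control level of 1B is subtracted in its response, so picking genes by a higher response favours a low Control level. The share of all genes with the lowest Control level in 1B is not given here. Added GM-CSF separates both 1A and 1C from 1B, and 1C was also cultured for longer, so that for 1C the 2 cannot be told apart. Whether the protocols shared litters or culture dates is not given in the sources used here. For 1A and 1C alike, litter and culture batch therefore cannot be told apart from GM-CSF.

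**Figure D5:**
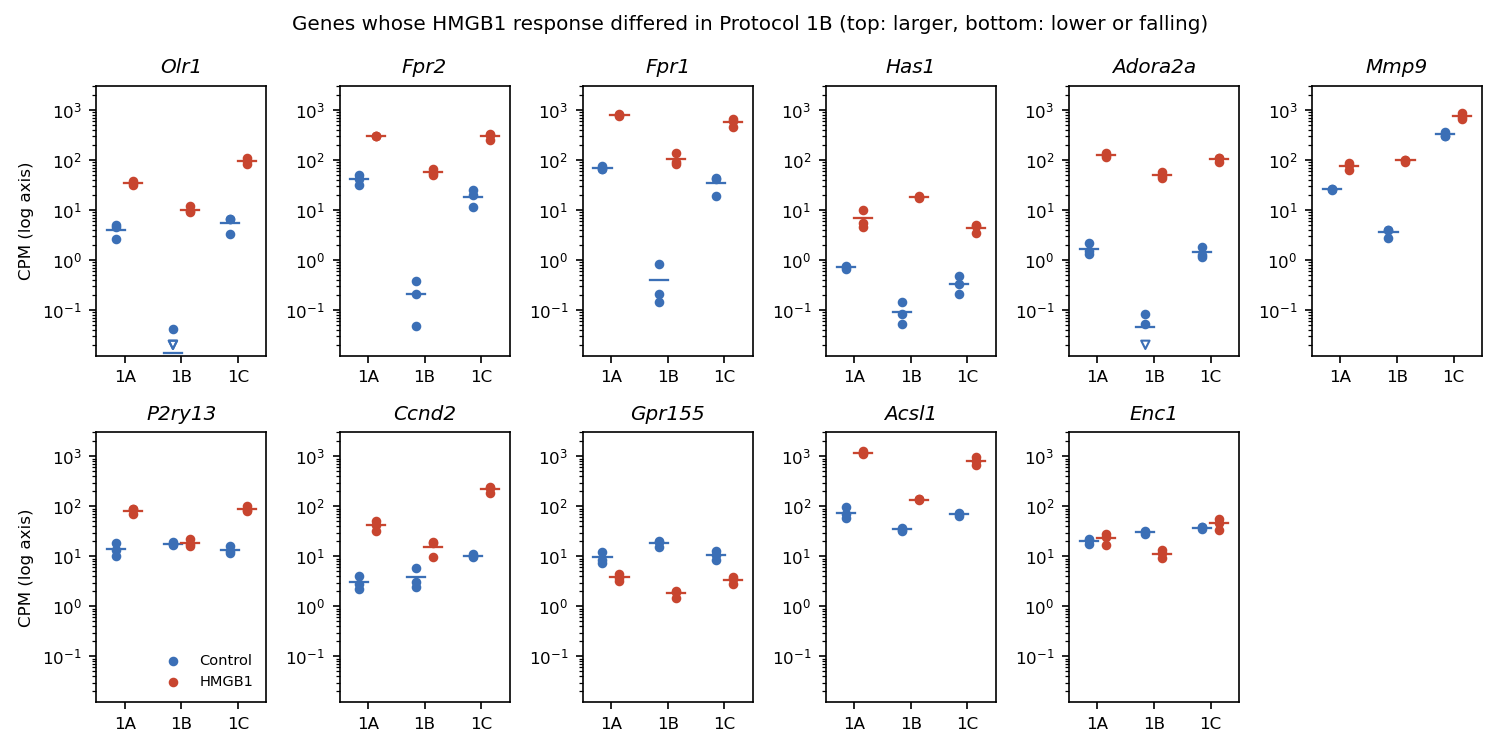
Levels of 11 genes in Protocols 1A, 1B and 1C, as CPM scaled over 18 libraries on a log axis, with points for Control (blue) and HMGB1 (red) libraries, bars for means of 3 and open triangles for libraries with 0 counts. In the top row the Control level of 1B lies below those of 1A and 1C, and in the bottom row P2ry13 changes by 0.07 in 1B against 2.57 in 1A and 2.70 in 1C.

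Most genes with a higher response in 1B had a lower Control level there, which the way they were picked favours. Fpr2 had Control levels of 0.209 CPM in 1B, 40.6 in 1A and 18.5 in 1C, and HMGB1 levels of 56.5, 299 and 296 CPM, so that its response exceeded those of 1A and 1C by 5.10 and 3.97 on the log2 scale (adjusted p = 1.28e-04 and 0.00114). Even after HMGB1 it stayed below both other protocols. Fpr1 was likewise lowest in 1B, going from 0.394, 68.4 and 34.8 CPM in the Controls of 1B, 1A and 1C to 103, 788 and 574 CPM. Olr1 differed by 5.78 and 4.73, Adora2a by 3.65 and 3.70 and Mmp9, a gelatinase, by 3.19 and 3.56. Olr1 and Adora2a had 1 and 3 counts in the Control libraries of 1B together, so the size of their differences is uncertain. Has1, a hyaluronan synthase that neighbours the formyl peptide receptors on the chromosome, reached the highest HMGB1 level in 1B, 18.1 CPM against 6.73 and 4.37 in 1A and 1C.

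Il1b belonged to the same set. Its Control level was 0.402 CPM in 1B, 9.13 in 1A and 2.36 in 1C, and its HMGB1 level 2689, 1835 and 2347 CPM (differences in response 4.99 and 2.68, adjusted p = 1.77e-06 and 0.00107). Marco (2.55 and 3.70), C3 (3.16 and 2.44), Tlr2 (1.38 and 1.52), Cd14 (0.75 and 0.89), Tnf (1.09 and 0.79) and Nlrp3 (1.39 and 0.81) also had the larger rise in 1B. Of the NF-kB list 6 of 24 members had a higher response than in both other protocols, of the cytokines 5 of 39, of the chemokines 4 of 24, of the interferon response genes 6 of 48 and of matrix and adhesion genes 6 of 32, where 1.40% of all genes did. In the lists of DNA replication, mitosis, oxidative phosphorylation, MHC class I presentation, cholesterol synthesis, lysosome, ribosome biogenesis and citric acid cycle, 0 of 286 genes differed from both in edgeR's test, where 12 had an unadjusted p below 0.05 in both with the same sign and 2 passed in DESeq2's Wald test.

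A smaller group responded less, or fell further, in 1B. P2ry13 was at 17.8 and 18.8 CPM in 1B, 13.9 and 82.2 in 1A and 13.5 and 88.5 in 1C (differences -2.50 and -2.64, adjusted p = 1.39e-05 and 8.44e-06). Its Control levels lay close in the 3 protocols and its HMGB1 level was lowest in 1B. Acsl1, which activates long-chain fatty acids, rose by 1.98 in 1B, 3.99 in 1A and 3.56 in 1C, and Ccnd2 by 2.08, 3.79 and 4.41. Gpr155 fell by 3.35 in 1B and 1.34 and 1.65 in 1A and 1C. Enc1 fell in 1B (-1.40) and was at 0.16 in 1A and 0.29 in 1C. Tgfbr2 (-0.70 and -0.77), P2ry12 (-1.02 and -1.33) and Slco2b1 (-1.44 and -1.25) had the lower response in 1B. The difference from 1A did not pass on leaving out Control library 1 or 3 or any HMGB1 library for Ccnd2 (edgeR, adjusted p = 0.0554 to 0.158), nor on leaving out Control library 1 or 2 or HMGB1 library 3 for P2ry12 (edgeR, adjusted p = 0.0607 to 0.102).

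In 14 genes the direction itself differed under TMM scaling, with 7 that rose in 1B and fell in both other protocols and 7 the reverse. Fos rose by 0.77 in 1B and read -0.89 in 1A and -0.66 in 1C. Pstpip1, a regulator of the cytoskeleton and pyrin, rose by 0.53 and read -0.76 and -0.78. With library totals Fos reads 0.29 and Pstpip1 0.07 in 1B and neither passed, so their rise there depends on the scaling. Of the 7 rises in 1B, those other than Fos, Pstpip1 and Kcnn3 were 0.26 to 0.50, near or below the 0.47 shift between scalings. Tle3, a corepressor, fell by 0.64 in 1B and rose by 0.51 and 1.34, and Kynu, kynureninase, fell by 1.11 and rose by 0.77 and 1.44. Kynu failed the test on leaving out Control library 1 or HMGB1 library 3 (edgeR, adjusted p = 0.0855 and 0.0504). Of the 14 genes, all but Kynu and Kcnn3 (3.04) changed by less than 1 on the log2 scale in 1B. Kcnn3 had 0, 1 and 1 counts in the Control libraries of 1B and 0, 2 and 15 with HMGB1, too few for the test within 1B, and without HMGB1 library 3 its differences from 1A and 1C did not pass (edgeR, adjusted p = 0.279 and 0.193).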

How the data were processed

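RNA was sequenced from microglia of 5 isolation protocols, and the 6 libraries of Protocol 1B, with the 12 of Protocols 1A and 1C, were used. The authors used HISAT2 2.0.5 for alignment and featureCounts 1.5.0-p3 for counting, per the labels, and deposited a table of raw counts for 54532 gene identifiers. The genome build is not given in the sources used here; 98.3% of the identifiers shared with GENCODE M21 have the same position there. Whether counting used strand is not given, so a gene and its antisense partner, and near-identical copies, may share or lose reads. 

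Counts of the 6 libraries were filtered with filterByExpr, which kept 13598 of 25499 genes with a count, scaled with TMM and tested with edgeR 4.0.16 (glmQLFit and glmQLFTest, R 4.3.3, limma 3.58.1, statmod 1.5.0) and Benjamini-Hochberg adjustment at 0.05. SE is the standard error of the log2 fold change from the same fit. Differences between responses were contrasts in a fit of 18 libraries, and levels set beside each other across protocols were scaled over all 18. Ratios of genes with few Control counts carry exact 95% intervals that, like the floor of 3 counts per library, cover counting error only. The fitting code was tested on simulated data. Members and gene lists were chosen with earlier results of these data known. Genes were named if marked as key in a list, among its 4 smallest adjusted p or its 2 highest levels that did not pass, among the 10 largest rises and falls of protein-coding genes with at least 10 CPM in the higher group, a count in each group and no overlap, among the 10 with the highest level and 0 counts in a group, or among the largest differences from Protocols 1A and 1C. Ager, Cdc20, Gapdh and Il12a lie outside this rule and were picked with their values in view, as were the genes of the closing observations. Some genes that the rule names are not reported here. Aldoa, Atp5o and Ddit3 stand on more than 1 identifier and were left out of their lists. Promoters came from RefSeq (GRCm38.p6), of which 8587 of 11914 tested protein-coding genes had a window whose start lay within 1000 bases of the annotated start. 

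The study's methods say that replicates are isolations from distinct litters, so p-values measure the spread between litters and isolations. Labels give each group replicate numbers 1 to 3. After subtracting group means, same-numbered Control and HMGB1 libraries correlated at 0.176, 0.319 and 0.409 and all other pairs at -0.304 to -0.019, so the numbers were taken to pair the libraries. The main tests do not use the pairing. A fit that blocks on the number is given where it changes a call of the response within 1B. Alternatives were DESeq2 1.42.0, other scalings, no filter, the block, the fit of 18 libraries, removal of mitochondrial and rRNA-type genes, a minimum fold change and leaving out each library.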

Additional observations from a re-analysis of the deposited data

Results flagged for a closer look

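The results drawn out here are genes named in the text whose HMGB1 response in Protocol 1B differed from those of both Protocol 1A and Protocol 1C in edgeR's test, at an adjusted p below 0.05 for each difference. The value beside each gene is the smaller of the 2 differences, as the log2 fold change of 1B minus that of the other protocol. Groups of 3 libraries are too small for a test of single outlying libraries.

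The largest positive differences were those of Kcnn3 (6.18), Olr1 (4.73), Fpr2 (3.97), Fpr1 (3.88), Has1 (3.85), Adora2a (3.65), Mmp9 (3.19), Il1b (2.68), Marco (2.55) and Cxcl2 (2.32). They were followed by Gbp2 (2.31), Bcl2a1a (2.19), Gbp7 (2.14), Mmp14 (1.56), Itgal (1.49), Fos (1.42), Tlr2 (1.38), Pstpip1 (1.29), Spaca6 (1.22) and Gpr84 (1.22). Smaller positive differences were those of Ikbke (1.07), Ccl9 (0.98), Il1a (0.94), Cdkn1a (0.90), Icam1 (0.86), Cybb (0.84), Tnfrsf1b (0.82), Nlrp3 (0.81), Ier3 (0.80) and Junb (0.79). Further down came Tnf (0.79), Cd14 (0.75), Fas (0.74), Irf1 (0.72), Slc40a1 (0.70), Csf1 (0.68), Nfkbia (0.65), Ppp1r15a (0.65), Axl (0.62) and Spi1 (0.60). The positive differences nearest to 0 were those of C5ar1 (0.56), Relb (0.54), Tlr1 (0.50), Sod2 (0.47), Zc3h12a (0.45) and P2ry6 (0.40). A positive difference can also be a smaller fall, as for P2ry6 and Slc40a1, which fell in 1B. Of all 217 genes with a higher response, 188 passed as rises in 1B and 14 as falls. Olr1 and Adora2a rest on 1 and 3 counts in the Control libraries of 1B together, so their place in this order is uncertain.

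Negative differences, in which 1B rose less or fell further, were led by P2ry13 (-2.50), Kynu (-1.88), Ccnd2 (-1.71), Gpr155 (-1.70), Acsl1 (-1.58), Enc1 (-1.56), Socs6 (-1.31), Slco2b1 (-1.25) and Tle3 (-1.15). Smaller negative differences were those of P2ry12 (-1.02), Tgfbr2 (-0.70), Ticam2 (-0.57), Ski (-0.47) and Bcl2l11 (-0.40).

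Of these 60 genes, 18 had a difference that failed on leaving out 1 library of 1B. Kcnn3 rests on 0, 1 and 1 counts in Control and 0, 2 and 15 with HMGB1, and without HMGB1 library 3 its differences were 4.14 and 4.70 (edgeR, adjusted p = 0.279 and 0.193). The others were Gbp2, Il1a, Ier3, Junb, Fas, Irf1, Csf1, Axl, Tlr1, Sod2, P2ry6, Bcl2l11, Ski, Ticam2, P2ry12, Ccnd2 and Kynu, where the differences that failed kept their sign and had an adjusted p of 0.052 to 0.191 in edgeR's test.

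Among all 217 genes with a higher response in 1B, the mean Control level of 1B was the lowest of the 3 protocols for 188. The Control level enters the response with a minus sign, so this count is favoured by how the genes were picked.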

How the results depend on the processing

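The counts of 4049 rises and 4355 falls stayed within 1.5 times under every alternative except 2. With library totals 2080 genes rose and 7850 fell, and with a log2 fold change of at least 1 the counts were 1722 and 1893, 3615 in all, with 407 list members. Upper-quartile scaling gave 2864 and 5991, DESeq2's Wald test 4093 and 3926, and the replicate block 4261 and 4547. Leaving out 1 library gave 3715 to 3921 rises and 3838 to 4363 falls. Of 269 genes named and tested, 222 kept call and direction under all 14 alternatives. With library totals 16 genes that read below 0 without passing under TMM scaling passed as falls, and 14 did with upper-quartile scaling. Of those that changed sign, C1qa, C1qc, Cd68, Clec7a, Ctsb, P2ry13 and Spp1 also passed as falls with library totals, and Ctsb and Spp1 with upper-quartile scaling. The log2 fold change changed sign with library totals for Abca1 -0.03, C1qa -0.27, C1qc -0.32, Cd68 -0.36, Clec7a -0.43, Csf1r -0.15, Ctsb -0.44, H2-DMa -0.07, Itgax -0.24, Lyz2 -0.22, P2ry13 -0.40, Pf4 -0.04, Sall1 -0.06, Spp1 -0.41 and Tfrc -0.43, and with upper-quartile scaling for C1qa -0.02, C1qc -0.07, Cd68 -0.11, Clec7a -0.18, Ctsb -0.19, P2ry13 -0.16, Spp1 -0.17 and Tfrc -0.19, since these scalings shift the median of all genes by -0.47 and -0.23. Under other alternatives only values within 0.07 of 0 that had not passed changed sign, those of Apoe, Clec7a, Ctsb, Fcrls, P2ry13, Stab1, Tfrc and Tnip2. Genes with a higher response in 1B than in 1A numbered 944 in DESeq2's Wald test and 948 without the filter, against 613. With the replicate block the response of 1B differed from that of 1A for 1517 genes, against 1177 without it. Against 1C the numbers were 1951 and 1542. Which of the 60 flagged differences pass with the block is not given here. With library totals the log2 ratio of marker sums was -0.32 for oligodendrocyte, 1.29 for endothelial and 0.50 for monocyte and dendritic cell markers. Within 1B, pairing libraries by replicate number changed no call of a named gene, and moved no list count in the text by over 1.5 times, beyond those printed beside them. It moved other list counts by less. Of 25499 genes with a count, 13598 had enough to be tested, and with 3 libraries a group the exact test of a single sum cannot go below p = 0.1.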

Other observations

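Gene families, grouped by name after the values had been seen, moved unevenly. Some of their members are also in the lists, such as guanylate-binding protein genes, Psmb9 and Kif23, so these counts partly repeat results given above. Of 321 tested genes named Zfp and a number, which include the RNA decay factor Zfp36 and its relatives, 39 rose and 183 fell. These are 12.1% and 57.0% against 29.8% and 32.0% of all genes. The median log2 fold change of the Zfp genes was -0.58. Of 31 kinesin genes, several of them mitotic, 5 rose and 18 fell (median -0.75). Proteasome subunit genes moved the other way, 36 of 39 rising and 1 falling (median 0.62), and 18 of 31 ubiquitin E2 genes rose with 3 falling (median 0.43), although with library totals the medians of these lists were 0.14 and -0.05. Cytosolic ribosomal protein genes showed 41 small rises among 79 (median 0.19), and their median was -0.29 with library totals. All 7 schlafen genes and all 9 guanylate-binding protein genes tested rose, with medians of 4.34 and 6.88, and near-identical members of both families may share reads.

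Runs of neighbouring genes were counted along the chromosomes. There were 35 runs of 3 or more neighbouring tested protein-coding genes that all rose at least 4-fold, with 140 genes in them, and 4 such runs of falling genes. More genes rose than fell at this size, 876 against 536 over all gene types. How many runs genes placed at random would give was not tested. The longest run held 12 genes on chromosome 1 between 173468485 and 174044411, from Ifi206 to Ifi205 and the olfactory receptor gene Olfr433. Others were the 7 schlafen genes on chromosome 11, 6 Ifit genes on chromosome 19 and Ccl2, Ccl7, Ccl12, Ccl8 and Tmem132e on chromosome 11. On chromosome 17 a run of Vmn2r90, Spaca6, Has1, Fpr1 and Fpr2 held genes of unlike function.

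Receptor genes of the sensory organs also had counts. Olfr1396 and Vmn2r90 had 0 counts in Control and 291 and 343 with HMGB1. Olfr1396 overlaps Olfr56, which is on the opposite strand and rose at least 4-fold, and Vmn2r90 lies 92002 bases from Spaca6. The antisense gene Il1bos, with 0 and 123 counts, overlaps Il1b, and whether its reads come from Il1b was not tested.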
